A study of Mus musculus with 6 samples.

Results

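Glycolysis splits glucose into pyruvate in the cytosol, and the pyruvate dehydrogenase complex then carries pyruvate into mitochondrial oxidation. Many steps are run by isoenzymes from separate genes, so a tissue's choice of isoform tells something about which cells it holds; liver, muscle and platelet forms of phosphofructokinase are the classic case. Pancreatic ductal tumours are known for high glucose uptake and strong expression of glycolytic enzymes, and low oxygen raises many of the same genes through the factor HIF1. The genes described here are 34 transporters, enzymes and regulators of this route, from glucose entry to the fate of pyruvate. They were read from single-gene Affymetrix probe sets, with the probe set of highest mean standing for each gene. Of the 34, 31 had such a probe set among 18194 genes in all, and 29 passed the level filter that left 11623 genes for testing. Gpi1, Pfkfb1 and Eno1 were not analysed here, and Fbp1 and Eno2 lay below the filter.

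The samples were 6 tumours grown under the skin of the back from injected cells of KPC1199, a line of mouse pancreatic ductal adenocarcinoma. 3 came from lactation mice, injected once pregnant or nursing, and 3 from control mice of the same age, all taken at 20 days after injection. Strain, age and the mice that were pregnant rather than nursing at injection are not given in the labels used here. The tumours are called biological replicates, and all come from 1 cell line. Whole tumours were used, so a lower signal can reflect fewer cells of a type or less RNA per cell, which cannot be told apart.

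Median signal per array ran from 99.3 to 111, and 6 arrays set the limit of precision. The labelled tissue was checked against 13 markers of ductal epithelium. 12 had a probe set, none of these was below the array median on all arrays, and their summed signal was 79810.0 to 114793 in lactation and 74453 to 94363 in controls. By summed signal, skeletal muscle markers were the list that separated arrays most, as given below. The other cell type lists were for adipocytes, macrophages, granulocytes, T cells, fibroblasts, endothelium, red blood cells, nerve, mammary epithelium and keratinocytes. Their summed signals overlapped between the groups and differed by 1.45 to 2.70 times between the highest and the lowest array. Krt14, also in the keratinocyte list, made up most of the mammary sum, at 3521 to 7734. The caseins Csn1s1, Csn2 and Csn3 of the mammary list were highest on lactation replicate 2, at 359, 333 and 396. On the other arrays Csn1s1 was at most 13.1 and Csn3 at most 76.3. Wap, Lalba and Elf5 of that list were below the array median on all arrays. The source of the casein signal was not tested.

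Differences between the groups were small for most genes of the route. No member passed the test over all genes (limma, Benjamini-Hochberg adjusted p under 0.05), where 0% of all 11623 genes passed. At an unadjusted p under 0.05 there was 1 member, Pfkl, beside 264 of all genes (2.27%). That count was 0 in limma when any 1 of lactation replicates 2 and 3 and control replicates 2 and 3 was left out. It was also 0 without both lactation replicate 1 and control replicate 2, with a replicate block and with plain probe sets first. The count was 2 with quantile normalization and stayed 1 with a gene's probe sets averaged. With averaging, another member made the count and Pfkl had a limma p of 0.095. The absolute log2 difference was under 0.2 for 25 of the 29 tested members, beside 81.1% of all genes. Lactation had the higher mean in 19 of the 29, beside 48.3% of all genes, and in 14 of 29 members and 4030 of all 11623 genes when each array was centred on its median. The median log2 difference was 0.034 over the members and -0.0052 over all genes tested. Groups did not overlap for 1 member, again Pfkl, which was higher in lactation, beside 3.71% of all genes in that direction and 6.9% in either, so the share of members with separate groups was not above that of the array as a whole. The highest array was under 1.5 times the lowest for 21 of the 29, beside 64.9% of all genes, and over 3 times it for 2, Pfkm and Pdk4, beside 4.66%.

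**Figure D1:**
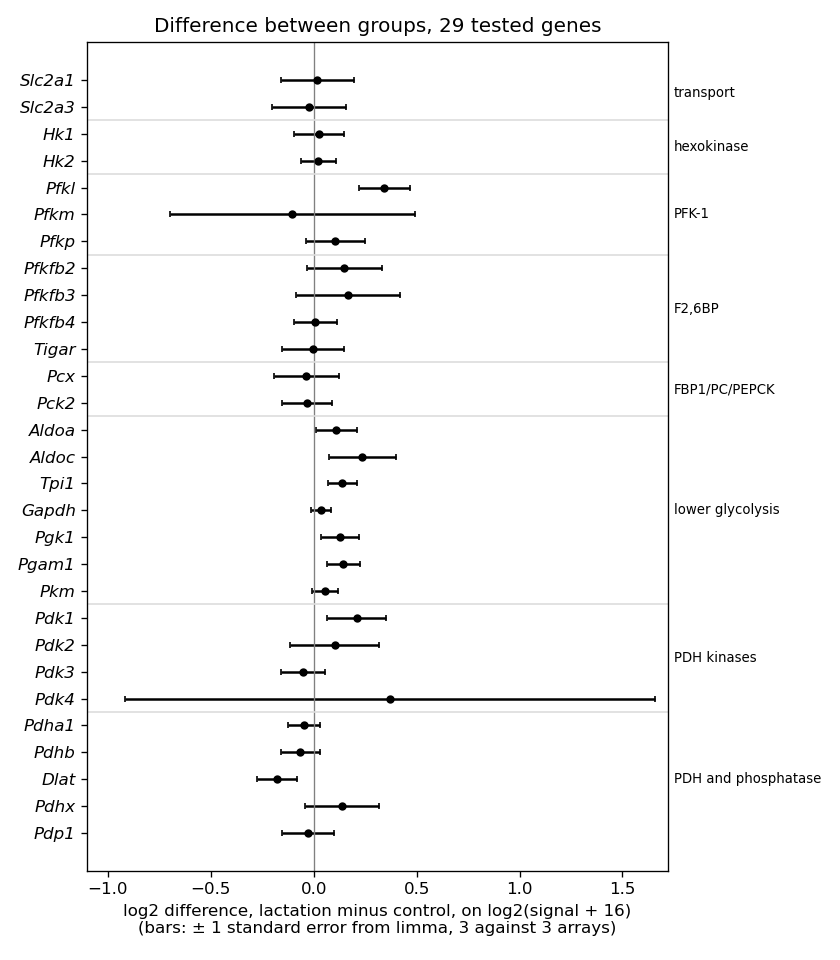
Log2 difference of lactation minus control on the log2(signal + 16) scale for the 29 tested genes, grouped by step of the route; points are the difference of 3 and 3 arrays and bars are 1 standard error from limma. Pfkl lies farthest from 0 relative to its bar, at 0.34, while Pfkm and Pdk4 have the widest bars, with standard errors of 0.60 and 1.29.

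Glucose entry came first in the route. Slc2a1, the widely expressed transporter GLUT1, had signals of 1707, 2138 and 2591 on lactation arrays 1 to 3 and 2221, 1742 and 2361 on control arrays 1 to 3. Its groups overlapped fully, with a log2 difference of 0.017 (standard error 0.18, 95% interval -0.40 to 0.44). Slc2a3, the high-affinity transporter GLUT3 of neurons and leukocytes, measured 219, 273 and 321 in lactation and 243, 315 and 264 in controls. Its groups overlapped too, and the difference was -0.023 (standard error 0.18, 95% interval -0.45 to 0.40). Slc2a3 was read from a probe set of a type that can match several transcripts. Its second probe set above the filter gave 0.054, and the others lay below the filter, at 1.36 to 28.2. With probe sets averaged or plain probe sets first, Slc2a3 fell below the filter.

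Hexokinases trap glucose as glucose 6-phosphate. Hk2, the isoform linked to tumour growth and to insulin-responsive tissue, was among the steadiest members at 1427, 1459 and 1386 in lactation and 1309, 1414 and 1490.5 in controls. The log2 difference was 0.021 (standard error 0.085), and the 95% interval of -0.18 to 0.22 bounds the change more tightly than for most members. Hk1, the isoform found in nearly all cells, measured 1134, 1351 and 1427 against 1279, 1149 and 1408, a difference of 0.026 (standard error 0.12). With arrays centred on their medians the differences of Slc2a1, Hk1 and Hk2 were -0.029, -0.020 and -0.025, so none of the 3 has a settled direction. The log2 ratio of Hk2 to Hk1 shifted by -0.0046 between the groups (standard error 0.13, exact two-sided permutation p = 1).

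Phosphofructokinase commits sugar to glycolysis, and 3 genes encode its subunits. Pfkl, the liver-type subunit, had signals of 1135, 1226 and 1324 in lactation and 1118, 943 and 847 in controls. Every lactation array lay above every control array, although lactation replicate 1 and control replicate 1 were almost level. The mean was 1228 ± 94.4 (SD, n = 3) against 969 ± 138 (SD, n = 3). The log2 difference was 0.34 (standard error 0.13, 95% interval 0.047 to 0.64), and limma's adjusted p was 0.9998. Over the alternatives the adjusted p ran from 0.871 to 1. When an array was left out the difference lay between 0.25 and 0.45, the lowest without control replicate 3.

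The other Pfkl probe sets gave smaller or less separate differences. The second brightest measured 691, 681 and 802 in lactation and 761, 568 and 608 in controls, a log2 difference of 0.17 with overlapping groups. The dimmest measured 156, 211 and 243 against 193, 132 and 157, a difference of 0.31 with overlapping groups. All 3 had the higher mean in lactation, and the separation of the groups was seen with the brightest of them alone.

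Pfkp, the platelet-type subunit that many carcinomas express, measured 1281, 1628 and 1891 in lactation and 1409, 1505 and 1498 in controls. The controls lay close together inside the wider lactation range, and the difference was 0.10 (standard error 0.14), while a dimmer probe set gave -0.034. Pfkm, the muscle-type subunit, measured 2143, 719 and 561 in lactation and 958, 2009.8 and 561 in controls. It was high in 1 array of each group and had a difference of -0.10 with a standard error of 0.60. Set side by side within arrays, the log2 ratio of Pfkl to Pfkp was -0.17, -0.40 and -0.51 in lactation and -0.33, -0.66 and -0.81 in controls, so the groups overlapped. The change of the ratio was 0.24 (standard error 0.17, exact two-sided permutation p = 0.3, where 3 against 3 arrays cannot go below 0.1). Of 13 isoform pairs compared, 0 had groups that did not overlap, exact p values were 0.3 or more, and every p adjusted over the pairs was 1.

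**Figure D2:**
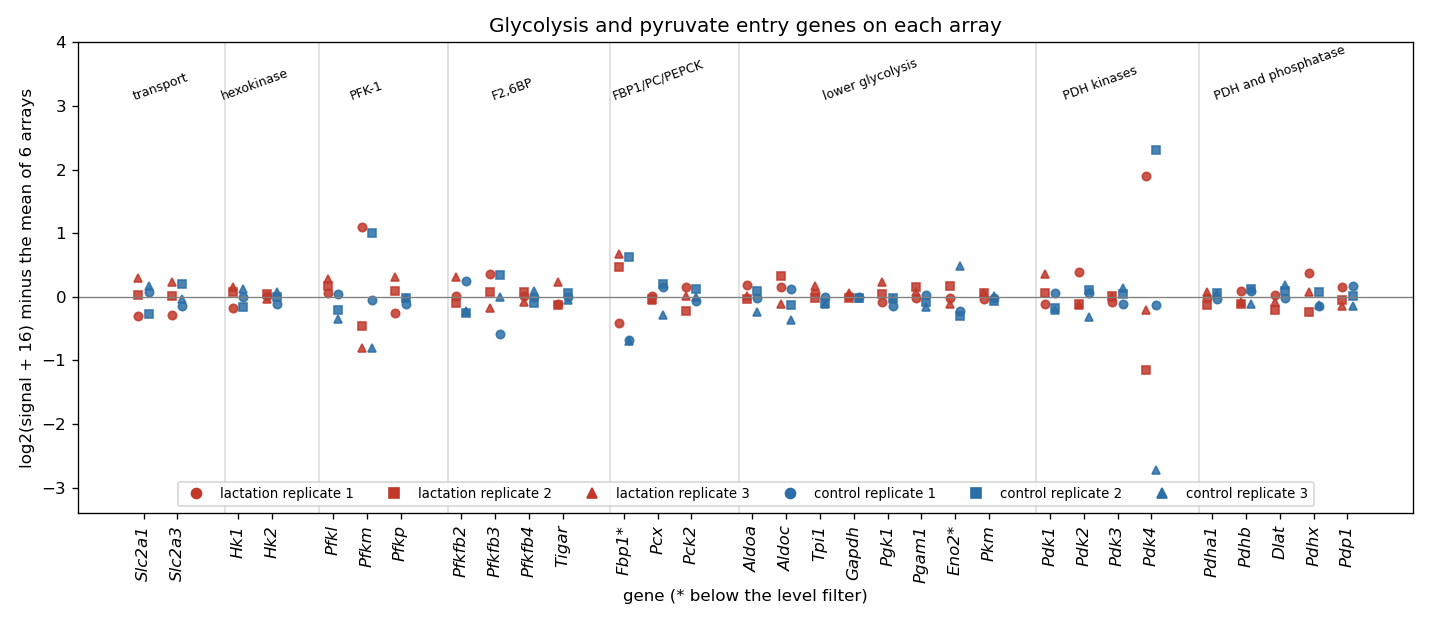
Log2(signal + 16) of 31 genes on each of the 6 arrays, shown relative to each gene's mean over the arrays and grouped by step; colour gives the group, marker shape the replicate, and a star marks the 2 genes below the level filter. Most genes lie within a narrow band, and Pfkm and Pdk4 stand out, with lactation replicate 1 and control replicate 2 highest for both.

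Fructose 2,6-bisphosphate is the strongest activator of phosphofructokinase, and bifunctional PFKFB enzymes make and remove it. Pfkfb3, whose product favours synthesis, measured 458, 373 and 310.3 in lactation and 232, 451 and 351 in controls. The difference was 0.17 (standard error 0.25), and it was -0.080 without control replicate 1, the lowest array. Pfkfb2, the heart-type form, measured 369, 339.8 and 456 against 437, 305 and 311, a difference of 0.15 (standard error 0.18) that was 0.032 without lactation replicate 3. Pfkfb4 differed by 0.0082 (standard error 0.10), with all 6 arrays between 589 and 668. Tigar, which lowers fructose 2,6-bisphosphate and is a p53 target, differed by -0.0052 (standard error 0.15), and its second probe set gave -0.20.

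Most enzymes from aldolase to pyruvate kinase were among the brightest genes on the array. All 7 tested members of this stretch had a higher mean in lactation (6 of 7 with arrays centred on their medians, where Gapdh turned to -0.012), none passed the test, and none had separate groups. The log2 differences ran from 0.034 for Gapdh to 0.24 for Aldoc, with a median of 0.13. Tpi1, triose phosphate isomerase, measured 10060.3, 9571 and 10821 in lactation and 9617, 9043 and 8963 in controls. Only the lowest lactation array fell below the highest control array, and the difference was 0.14 (standard error 0.069, 95% interval -0.024 to 0.30). Its other probe sets gave 0.17 and 0.25, and in the latter the lactation signals of 6908, 6427 and 7406 all exceeded the control signals of 5959, 5969.8 and 5493.

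Pgam1, phosphoglycerate mutase, measured 5939, 6744 and 6402 against 6185, 5700.2 and 5395. Its difference was 0.14 (standard error 0.081), and control replicate 1 lay above lactation replicate 1. Pgk1, phosphoglycerate kinase, measured 8059, 8808 and 10063 against 7764, 8463 and 8346, a difference of 0.13 (standard error 0.093) that was 0.042 without lactation replicate 3. Aldoc, the aldolase known from brain and from low oxygen, measured 1014, 1146 and 841 in lactation and 999, 837 and 708 in controls. Its difference of 0.24 (standard error 0.16) was 0.12 without control replicate 3. Aldoa, the main aldolase of muscle and of most tumours, measured 14008, 12037 and 12472 against 12145, 13155 and 10482, a difference of 0.11 (standard error 0.10) that was 0.019 without control replicate 3.

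Gapdh was nearly constant, with all 6 arrays between 19452 and 20551 and a difference of 0.034 (standard error 0.049). Its probe set was brighter than all but 0.18% of those on the array. Pkm, pyruvate kinase of tumours and muscle, lay between 6605 and 7214 and differed by 0.054 (standard error 0.063); one probe set cannot tell its M1 and M2 splice forms apart here. Eno2, the enolase of neurons and neuroendocrine cells, was dim, between 47.8 and 95.1, and below the array median on all 6 arrays. Aldoa, Tpi1 and Pgk1 were read from probe sets of the type whose probes can cross-hybridise with related sequences, and whether pseudogene or paralogue signal entered them was not tested.

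Counts for other lists, on the log2(signal + 16) scale and with no test, are set beside this stretch. Of 14 hypoxia reporters with a probe set, such as Car9 and Vegfa, 12 had a higher mean in lactation (11 with centred arrays), with summed signals of 36466 to 44002 in lactation and 33172 to 39874 in controls. All 12 measured ductal markers had a higher mean in lactation as well (11 with centred arrays). Their sum was highest on lactation replicate 3, at 114793, beside 96103 and 79810 on lactation replicates 1 and 2. Controls lay at 74453 to 94363. The hypoxia sum was also highest on lactation replicate 3, and its 36466 and 38233 on lactation replicates 1 and 2 lay within the control range. Of 9 proliferation genes 4 were higher in lactation (3 with centred arrays), with sums between 29598 and 31128 over all 6 arrays. Counts with 1 array left out are not given for these lists. Of the other cell type lists, 0 of 10 macrophage, 2 of 9 fibroblast and 1 of 8 endothelial markers were higher in lactation. With centred arrays 0 of each were. The counts higher were 8 of 12 for skeletal muscle, 5 of 6 for adipocyte and 4 of 7 for granulocyte markers. For mammary and keratinocyte markers they were 5 of 7 and 5 of 8. For T cell, red blood cell and nerve markers they were 2 of 6, 2 of 5 and 3 of 7. With centred arrays the red blood cell count was 1, and the rest of these stayed the same. The part of these lists in the small shifts of the glycolytic enzymes was not tested.

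**Figure D3:**
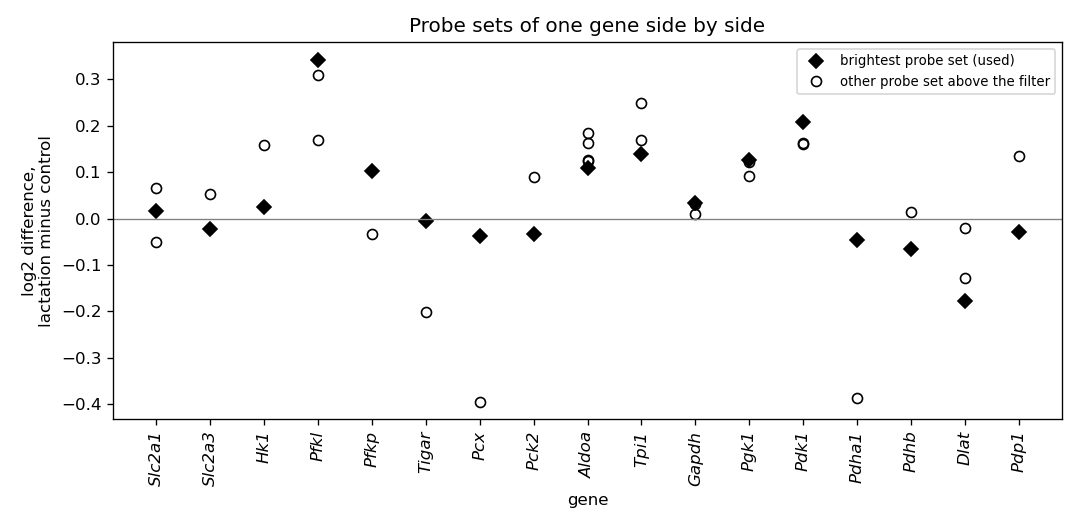
Log2 difference of lactation minus control for every probe set above the level filter, for the 17 genes that have at least 2; filled diamonds mark the brightest probe set, which represents the gene, and open circles the others. All probe sets of Hk1, Pfkl, Aldoa, Tpi1, Gapdh, Pgk1 and Pdk1 lie above 0 and all of Dlat, Pdha1, Pcx and Tigar below it, while 6 genes have probe sets on both sides.

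Pyruvate dehydrogenase kinases switch the complex off by phosphorylation. Pdk1, the isoform best known as a HIF1 target, measured 1356, 1527 and 1890.1 in lactation and 1536, 1289 and 1274 in controls. Its difference was 0.21 (standard error 0.14), its groups overlapped through control replicate 1, and the other probe sets above the filter gave 0.16 each. Without lactation replicate 3 the difference was 0.079. Pdk2 measured 222, 153 and 151 against 173, 179.8 and 130.1, a difference of 0.10 (standard error 0.22). Pdk3 measured 562, 606 and 597 against 552, 618 and 664, a difference of -0.051 (standard error 0.11).

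Pdk4, the isoform that muscle and fat raise in fasting, had the widest spread of all members. It measured 2169.8, 249 and 492 on the lactation arrays and 518, 2868 and 72.5 on the control arrays, a 39.5-fold range. The difference of 0.37 had a standard error of 1.29 and a 95% interval of -2.67 to 3.41, so these arrays place almost no bound on a change of Pdk4. It was -0.90 with control replicate 3 left out and 1.61 with control replicate 2 left out.

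The arrays high in Pfkm and Pdk4 were those high in skeletal muscle markers, 1 in each group. Summed over 12 muscle markers, among them Ckm, Acta1 and Myh4, the signal was 102118, 34135 and 17949 on the lactation arrays and 42469, 101577 and 12859 on the control arrays. Lactation replicate 1 and control replicate 2 were the highest arrays for each of the 12 markers, for Pfkm and for Pdk4. They were also the highest for Aldoa, Pfkfb3, Pck2 and Pdk2, together 6 of the 29 tested members, where 8.69% of all genes had that order. For Slc2a1, Hk1 and Pkm, 3 of the 29, these were the lowest arrays, where 9.08% of all genes had that order. The summed signal of 6 measured adipocyte markers was highest on the same arrays, at 5345 and 6935, beside 2565 to 4989 on the others. Taken singly, 2 of the 6 markers had that order, Fabp4 and Lpl. Adipoq and Retn were highest on lactation replicate 2, at 436 and 244, beside 188 and 126 on lactation replicate 1. Cidec and Lep of that list were below the array median on all 6 arrays.

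Of 42 tested genes of a wider list around the route, 11 were highest on the same arrays, beside the 8.69% of all genes. They were Slc2a4, Pgam2, Bpgm, Eno3, Dld, Mpc1, Gpd1, Pgm1, Gys1, Pygm and Cs, of which 3 muscle isoforms are shown. Eno3, the muscle enolase, measured 5119, 2008 and 1502 in lactation and 2929, 4698 and 1634 in controls. Pgam2, the muscle mutase, measured 1824, 433 and 319 against 511, 1504 and 89.7. Pygm, muscle glycogen phosphorylase, measured 1170.2, 364 and 205 against 223, 1124 and 171. Leaving out both arrays left 2 per group: the difference of Pfkm was then -0.20 and that of Pdk4 0.75, that of Pfkl was 0.38, and 0 genes passed the test. In that fit 21 of 29 members had the higher mean in lactation. What share of the Pfkm or Pdk4 signal came from muscle was not tested.

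**Figure D4:**
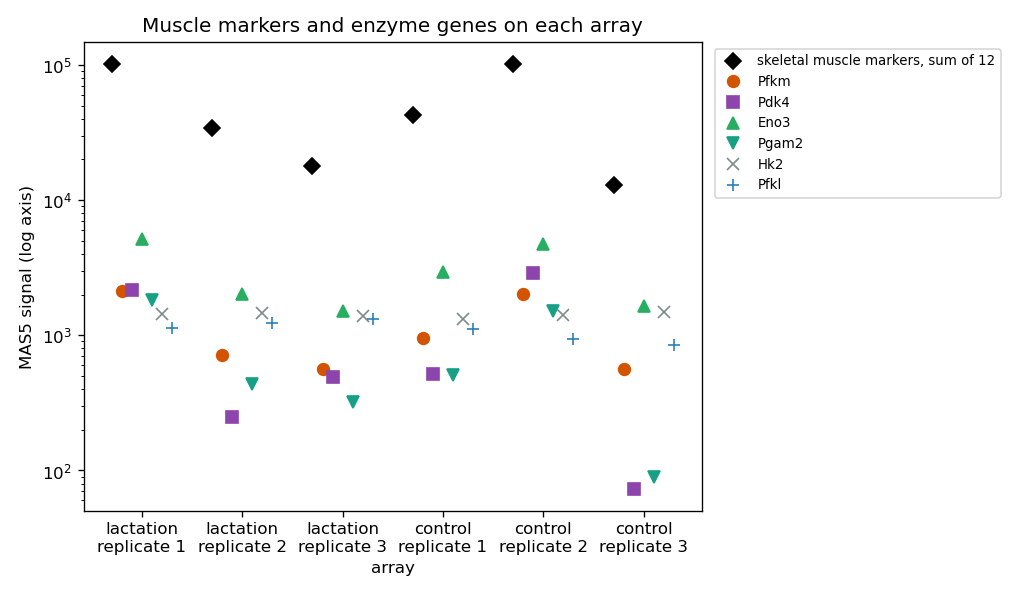
MAS5 signal on a log axis for each of the 6 arrays: the sum of 12 skeletal muscle markers, the muscle-type genes Pfkm, Eno3 and Pgam2, Pdk4, and, for comparison, Hk2 and Pfkl, with points set apart sideways so that none is hidden. Lactation replicate 1 and control replicate 2 are highest for the muscle sum, at 102118 and 101577, and for the muscle-type genes and Pdk4, whereas Hk2 stays between 1309 and 1490.5.

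Of the complex itself and its activating phosphatase, 5 genes were among the members. Dld, Pdp2 and Pdpr, also of the complex and its phosphatases, were in the wider list. They differed by 0.074, -0.048 and 0.081 (standard errors 0.12, 0.19 and 0.10) and are not counted here. Of the 5, all tested, 4 had a lower mean in lactation, none passed the test, and the median difference was -0.047. With 1 array left out 3 to 5 of the 5 were lower, and the median lay between -0.014 without lactation replicate 2 and -0.11 without lactation replicate 1. Dlat, the acetyltransferase core E2, measured 1393, 1187 and 1286 in lactation and 1356, 1464 and 1558 in controls. Its difference of -0.18 (standard error 0.099, 95% interval -0.41 to 0.055) kept its sign in every alternative, its groups overlapped through lactation replicate 1 and control replicate 1, and its other probe sets gave -0.13 and -0.021. Pdha1, the E1 alpha subunit, lay between 3118 and 3568 and differed by -0.047 (standard error 0.078), while its dimmer probe set gave -0.39. Pdhb, the E1 beta subunit, differed by -0.065 (standard error 0.095), and by 0.014 with its dimmer probe set. Pdhx, the E3-binding protein, measured 405, 259 and 328 in lactation and 278, 327 and 283 in controls, a difference of 0.14 (standard error 0.18) with overlapping groups. It was -0.015 without lactation replicate 1, the highest array. Pdp1, the phosphatase that switches the complex on, differed by -0.028 (standard error 0.12), and by 0.13 with its dimmer probe set.

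Enzymes that route carbon the other way were steady or dim. Pcx, pyruvate carboxylase, which makes oxaloacetate from pyruvate, measured 356, 342 and 339 in lactation and 391, 404 and 283 in controls. The difference was -0.037 (standard error 0.16), and a dimmer probe set gave -0.40. Pck2, the mitochondrial form of phosphoenolpyruvate carboxykinase, differed by -0.033 (standard error 0.12), and by 0.089 with its other probe set. Fbp1, fructose-1,6-bisphosphatase of gluconeogenic tissue, measured 21.7, 53.2 and 63.4 in lactation and 15.2, 61.3 and 14.8 in controls, below the array median on every array, and was not tested.

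The wider list of 64 genes around the route, covering other glucose transporters, the pentose phosphate branch, glycogen, lactate and pyruvate carriers, had 58 with a probe set and 42 above the filter. Of the 42, 19 had a higher and 23 a lower mean in lactation. The count higher was 14 with centred arrays, 13 without lactation replicate 1 and 27 without control replicate 2. Of all 11623 genes, 5619 had a higher mean, and 4030 did with centred arrays. That number was 5675 without lactation replicate 1 and 5587 without control replicate 2. Of the 42, 0 passed the test, 0 had an unadjusted p under 0.05 in limma, and 0 had separate groups. With 1 array left out 1 to 8 had separate groups, 8 without control replicate 1. In that fit 1320 of all 11623 genes were separate and higher and 1200 separate and lower. The median log2 difference of the 42 was -0.015.

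Upstream sequence is shown for Pfkl, whose groups did not overlap, for Pdk1, the kinase known as a HIF1 target, and for Pdk4, which varied most. Each is the 250 bases before the gene's first listed start, 5′ to 3′ on the gene's strand, from RefSeq (GRCm38.p6). Capitals mark ACGTG or GCGTG on either strand, the core letters of the HIF1 response element; ACGTG is also part of the E-box CACGTG.
Pfkl, chr10:78009808-78010057, minus strand: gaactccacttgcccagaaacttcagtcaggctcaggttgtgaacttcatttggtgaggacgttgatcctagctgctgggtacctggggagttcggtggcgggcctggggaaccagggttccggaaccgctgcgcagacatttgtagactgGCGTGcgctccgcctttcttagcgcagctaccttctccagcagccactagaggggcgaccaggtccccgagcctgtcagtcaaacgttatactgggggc
Pdk1, chr2:71872974-71873223, plus strand: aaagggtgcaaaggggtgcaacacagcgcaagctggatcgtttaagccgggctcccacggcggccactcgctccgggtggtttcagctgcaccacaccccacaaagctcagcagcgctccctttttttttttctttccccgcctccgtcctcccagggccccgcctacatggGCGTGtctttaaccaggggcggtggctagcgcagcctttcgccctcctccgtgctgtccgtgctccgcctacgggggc
Pdk4, chr6:5496279-5496528, minus strand: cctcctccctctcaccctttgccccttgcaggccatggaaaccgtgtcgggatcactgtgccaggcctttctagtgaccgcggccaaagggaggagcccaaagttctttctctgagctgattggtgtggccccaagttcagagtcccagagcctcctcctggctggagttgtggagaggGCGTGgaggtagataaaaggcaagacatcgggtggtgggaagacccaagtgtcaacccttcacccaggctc
Each holds 1 match, beginning at position -99 in Pfkl, -78 in Pdk1 and -71 in Pdk4, where -1 is the base just before the start. Of the 32 members with an entry, 22 (68.8%) had at least 1 match, beside 38.6% of 27025 genes. The median GC content of these stretches was 60% in the members and 52% over all genes, and a match of 5 letters shows neither binding nor a cause of any level given here.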

How the data were processed

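Total RNA of each tumour was labelled with biotin as cRNA and hybridised to its own Affymetrix array, per the labels' protocols. The deposited values are linear intensity values for 45101 probe sets, which the submitters' processing notes tie to MAS5, with no version. On each of the 6 arrays the mean, trimmed by 2% at both ends, was 500.0, so the authors had scaled the arrays before deposit. Neither scanner output nor detection calls were analysed here.

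Gene names came from the platform's annotation: 34958 probe sets had 1 symbol, 932 several and 9211 none, and 34754 of the first matched a reference table by Entrez identifier. Values were analysed as log2(signal + 16), so fold changes of dim genes are understated. Genes were kept where at least 3 arrays reached their array's median. Groups were compared with limma 3.58.1 in R 4.3.3 (trended eBayes, group only), adjusted over 11623 genes; the fit was tested on simulated data. Isoform ratios were compared with exact permutation tests over arrays. The 34 genes and the other lists were chosen with earlier results of these data known, so no list was tested. All 34 were to be named, with signals on every array for those with separate groups, the 12 largest differences and the main isoform families; some others, the muscle isoforms Eno3, Pgam2 and Pygm, and the arrays set aside for muscle were chosen after values were seen. Python 3.11.15, pandas 2.3.3 and matplotlib 3.10.9 were used for tables and figures.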

Additional observations from a re-analysis of the deposited data

How the results depend on the processing

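With 3 arrays a group, 0 genes and 0 members passed in any of 19 alternatives, the last of which, without lactation replicate 1 and control replicate 2, was chosen after seeing the data, as were the centred counts of the marker lists. Genes at an unadjusted p under 0.05 numbered 264 in limma, 137 (without lactation replicate 3) to 652 (without control replicate 1) with 1 array left out and 577 with no filter. Of 29 members 19 had a higher mean, 17 to 21 with 1 array left out, 14 with centred arrays, 15 of 22 with the filter at the 70th percentile and 21 of 31 with no filter. Their median difference was 0.034, -0.012 with centred arrays, 0.067 with plain probe sets first and 0.039 to 0.070 with 1 array left out. Over all genes the median was -0.0052, and it was -0.051 with centred arrays, so centring lowered both. Members with separate groups numbered 1, 2 with quantile normalization or centring and 0 with plain probe sets first. Beside the 1 member, 431 of all 11623 genes were separate and higher and 371 separate and lower. The counts over all genes were 411 and 374 with quantile normalization and 235 and 534 with centring. With plain probe sets first they were 432 and 365 of 11189 genes. Members with separate groups numbered 1 to 9 with 1 array left out (9 without control replicate 1) and 7 without both muscle-rich arrays. Fewer arrays make separation easier. With 1 array left out, 722 to 1320 of all 11623 genes were separate and higher and 677 to 1200 separate and lower. The lowest counts were without lactation replicate 3 and the highest without control replicate 1. Without both muscle-rich arrays these counts over all genes were 1590 and 1673. Deviations of same-numbered arrays had correlations of 0.14, -0.083 and 0.27, beside -0.47 to 0.46 for arrays of unlike number. Deviations from means of 3 arrays cannot tell whether the numbers pair the samples, and the labels used here do not say. With a replicate block 289 genes had an unadjusted p under 0.05 in limma and 0 passed.

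The difference kept its sign in all alternatives for 11 of 29 tested members: Pfkl, Pfkfb2, Aldoa, Aldoc, Tpi1, Pgk1, Pgam1, Pkm, Pdk1, Pdhb and Dlat. Gapdh turned with centred arrays, to -0.012, as did Slc2a1 (-0.029), Hk1 (-0.020), Hk2 (-0.025) and Pfkfb4 (-0.038). Averaging probe sets turned Pck2 to 0.028 and Pdp1 to 0.053, and plain probe sets first turned Pck2 to 0.089. With 1 array left out, 17 members took both signs. Their ranges, over these fits and the one without both muscle-rich arrays, were -0.13 to 0.17 for Slc2a1, -0.15 to 0.21 for Slc2a3, -0.048 to 0.12 for Hk1, -0.028 to 0.065 for Hk2, -0.68 to 0.37 for Pfkm and -0.025 to 0.27 for Pfkp. They were -0.080 to 0.38 for Pfkfb3, -0.043 to 0.054 for Pfkfb4, -0.12 to 0.079 for Tigar, -0.19 to 0.052 for Pcx, -0.12 to 0.070 for Pck2, -0.066 to 0.19 for Pdk2 and -0.12 to 0.0092 for Pdk3. The rest were -0.90 to 1.61 for Pdk4, -0.093 to 0.0042 for Pdha1, -0.015 to 0.29 for Pdhx and -0.11 to 0.051 for Pdp1. The change of the Hk2 to Hk1 ratio ranged from -0.10 to 0.082, and that of Pfkl to Pfkp from 0.13 to 0.38, with 1 array left out. The other 11 planned isoform pairs are given only as counts, a choice made after seeing the data. Of all 13, 0 had separate groups with all arrays under each scaling, added constant and probe set rule. That number was 0 to 2 with 1 array left out and 4 without both muscle-rich arrays. Fewer arrays make separation easier for pairs too, so these counts cannot be set against the 0 with all arrays. The cause of the turns of sign was not tested.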
